A study of Homo sapiens with 6 samples.

Results

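The phospholipid flippases and their TMEM30 chaperones were followed through the knockdown of CNN3, an actin-binding protein of the calponin family, in SiHa cells. The set holds 10 of the 48162 genes of the count table: the chaperone genes TMEM30A and TMEM30B, and the ATPase genes ATP8A1, ATP8B1, ATP8B2, ATP9A, ATP10A, ATP10D, ATP11A and ATP11B. They were matched by gene symbol, and the set was chosen because TMEM30A was lower after the knockdown. The differences between the groups in these 10 genes are therefore given as a description. Where one of them is said to be called, this gives only its side of the threshold in a fit across all genes, and is not counted as evidence.

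Flippases are P4-type ATPases, membrane pumps that use ATP to move phosphatidylserine, phosphatidylethanolamine, phosphatidylcholine or glucosylceramide from the outer to the inner leaflet of a membrane. Most of them leave the endoplasmic reticulum only as a complex with a TMEM30 protein (also called CDC50), and TMEM30A is the subunit that most of them share, whereas ATP9A works without one. Their activity keeps phosphatidylserine on the cytosolic side of the plasma membrane, and its exposure on the outer side marks dying cells for uptake.

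SiHa is an established human cervical cancer cell line. RNA was sequenced from 3 samples that received si-CNN3#1, a short double-stranded RNA (siRNA) directed at CNN3, and from 3 samples that received the control siRNA si-NC, all harvested at 48 h. Both groups went through transfection and a change of medium, no untransfected cells were sequenced, and 1 siRNA stands for the knockdown. CNN3 itself was at 28.1 ± 2.95 CPM (reads on a gene scaled to a common library total) with si-CNN3#1 and 55.2 ± 2.97 CPM with si-NC (mean ± SD, n = 3), which left 50.9% of the control level (edgeR's quasi-likelihood test, adjusted p = 2.04e-20).

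The counts on genes summed to between 18147028 and 19026341 in the si-CNN3#1 samples and between 20287139 and 24976517 in the si-NC samples, so every control sample was deeper. CPM values here are scaled by edgeR's TMM factors. Of 8 epithelial marker genes, 7 reached a mean of 1 CPM, and their summed level was 1416 to 1478 CPM with si-CNN3#1 and 1455 to 1523 CPM with si-NC. The 6 fibroblast markers summed to 11.8 to 13.0 and 11.2 to 12.5 CPM, the 3 endothelial markers measured to under 1 CPM in every sample, and no measured marker was at 0 in all samples. The 5 leukocyte markers summed to 120 to 128 CPM with si-CNN3#1 and 145 to 156 CPM with si-NC, nearly all of it CD14, and the part of these markers in the results was not tested. In bulk RNA, fewer cells of a type and less RNA per cell cannot be told apart.

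Because the groups differ by the siRNA that the cells received, the strands of both are shown first. The sense strands come from the sample labels, without their overhangs, and the guide strands are their reverse complements, written 5′ to 3′ with the seed (bases 2 to 8) in capitals.
si-CNN3#1 sense: gcagaugggaaccaacaaa
si-CNN3#1 guide: uUUGUUGGuucccaucugc
si-NC sense: uucuccgaacgugucacgu
si-NC guide: aCGUGACAcguucggagaa

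The 7 bases that pair with the seed of si-CNN3#1 are CCAACAA. Each gene was searched only in its GENCODE 29 coding transcript with the longest coding sequence. There, no 3′ UTR of the 10 genes held this site, while 7.52% of 12697 tested genes with such a transcript did. In the coding sequence the site stood in 6 of the 10 genes, namely TMEM30A, TMEM30B, ATP8B2, ATP10A, ATP10D and ATP11B. Across tested genes 17.0% had a coding site, a share that was 10.2% among 1881 genes with coding sequences of 900 to 1200 bases and 29.2% among 1166 genes with coding sequences of 3000 to 4600 bases, the ranges that contain the chaperones and the ATPases. The sites in both chaperone genes are shown with the 7 bases in capitals, on GRCh38 and on the minus strand, at chr6:75284407-75284435 for TMEM30A and chr14:61280412-61280440 for TMEM30B.
TMEM30A: ttttgtcacctCCAACAAcatccgcgaga
TMEM30B: cagccccgaccCCAACAAcaccggcttca

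The longest run of bases that the sense strand of si-CNN3#1 shared with any of the 10 transcripts was 8, and with TMEM30A it was 7, a run at least as long as which was found in 87.1% of tested genes. The CNN3 transcript held all 19 bases. In the same transcripts the si-NC site, TGTCACG, was in no 3′ UTR of the set, against 2.54% of tested genes. It was in the coding sequence of ATP11B alone among the 10, against 3.90% of tested genes. A match of this kind is a description of the sequence, and does not show that the siRNA bound there.

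The 8 ATPase genes share the P-type ATPase phosphorylation site, the stretch around the aspartate that accepts the phosphate of ATP in each pumping cycle. The coding sequence of each ATPase held this 15-base motif once and neither chaperone held it. In all of GENCODE 29 it was found in 42 of 19684 coding genes (0.213%), among them each of the 22 P-type ATPases of other classes that were searched. The motif was written from the known site of P-type ATPases, so its presence in them was fixed by that choice. The windows of 7 of the 8 ATPases of the set are written 5′ to 3′ on the coding strand of GRCh38 with the motif in capitals. That of ATP9A is joined over an intron.
ATP8A1 (chr4:42574669-42574695, minus strand): ttttctGACAAAACTGGTACTctgaca
ATP8B1 (chr18:57688348-57688374, minus strand): ttctctGATAAGACGGGGACActcaca
ATP9A (chr20:51670099-51671130, minus strand): ctcacaGACAAGACAGGCACTcttacc
ATP10A (chr15:25721721-25721747, minus strand): ttctcaGATAAAACTGGCACTttgaca
ATP10D (chr4:47536848-47536874, plus strand): ttttccGATAAGACAGGAACCctcact
ATP11A (chr13:112831387-112831413, plus strand): ttcacaGACAAGACCGGCACCctcacg
ATP11B (chr3:182865468-182865494, plus strand): tttacaGATAAAACTGGTACActgaca

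Among the 10 genes, 9 had enough reads to be tested in the fit across all 15860 genes. With si-CNN3#1, TMEM30A was called lower and ATP8B1, ATP9A and ATP11B were called higher at an adjusted p of at most 0.05, and 5 tested genes were not called. In that fit 13.3% of all tested genes were called, 7.14% lower and 6.17% higher, and since the set was chosen from this contrast nothing is read from its share of 44.4%. The median log2 fold change of the 9 genes was 0.09 and that of all tested genes was 0.00. In 7 of the 9 the CPM values of the groups did not overlap, 3 of them higher and 4 lower with si-CNN3#1, where 28.2% of all tested genes were separated in this way (13.9% higher and 14.3% lower).

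TMEM30A (ENSG00000112697, chr6:75252924-75284968 on the minus strand of GRCh38) had 3506, 3659 and 3468 counts in si-CNN3#1 replicates 1, 2 and 3 and 5165, 6263 and 5504 counts in si-NC replicates 1, 2 and 3. These were 186, 191 and 190 CPM with si-CNN3#1 and 257, 252 and 255 CPM with si-NC. The lowest control sample stood far above the highest knockdown sample, and within each group the values lay close together. The mean level was 189 ± 2.50 CPM against 255 ± 2.93 CPM (SD, n = 3), or 74.1% of the control.

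The log2 fold change of TMEM30A was -0.43 (SE 0.03, 95% interval -0.49 to -0.38), and with each of the 6 samples left out in turn it ran from -0.44 to -0.42. Under the 16 alternatives it ran from -0.44 to -0.41. Of the 844 tested genes at least as abundant as TMEM30A, 1 had a lower log2 fold change, the ribosomal stalk gene RPLP1 at -0.67. Of all tested genes, 320 did. TGM2, more abundant at a mean of 449 CPM, was nearly level with TMEM30A at -0.43. Since TMEM30A was chosen by this value, its place in the order is only a description. None of the 5116 words of 31 bases in the TMEM30A transcripts occurred in the GENCODE 29 transcripts of another gene of the count table. The same held for ATP8A1, ATP10A and ATP11B. Genes outside the count table and inexact copies were not counted.

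**Figure D1:**
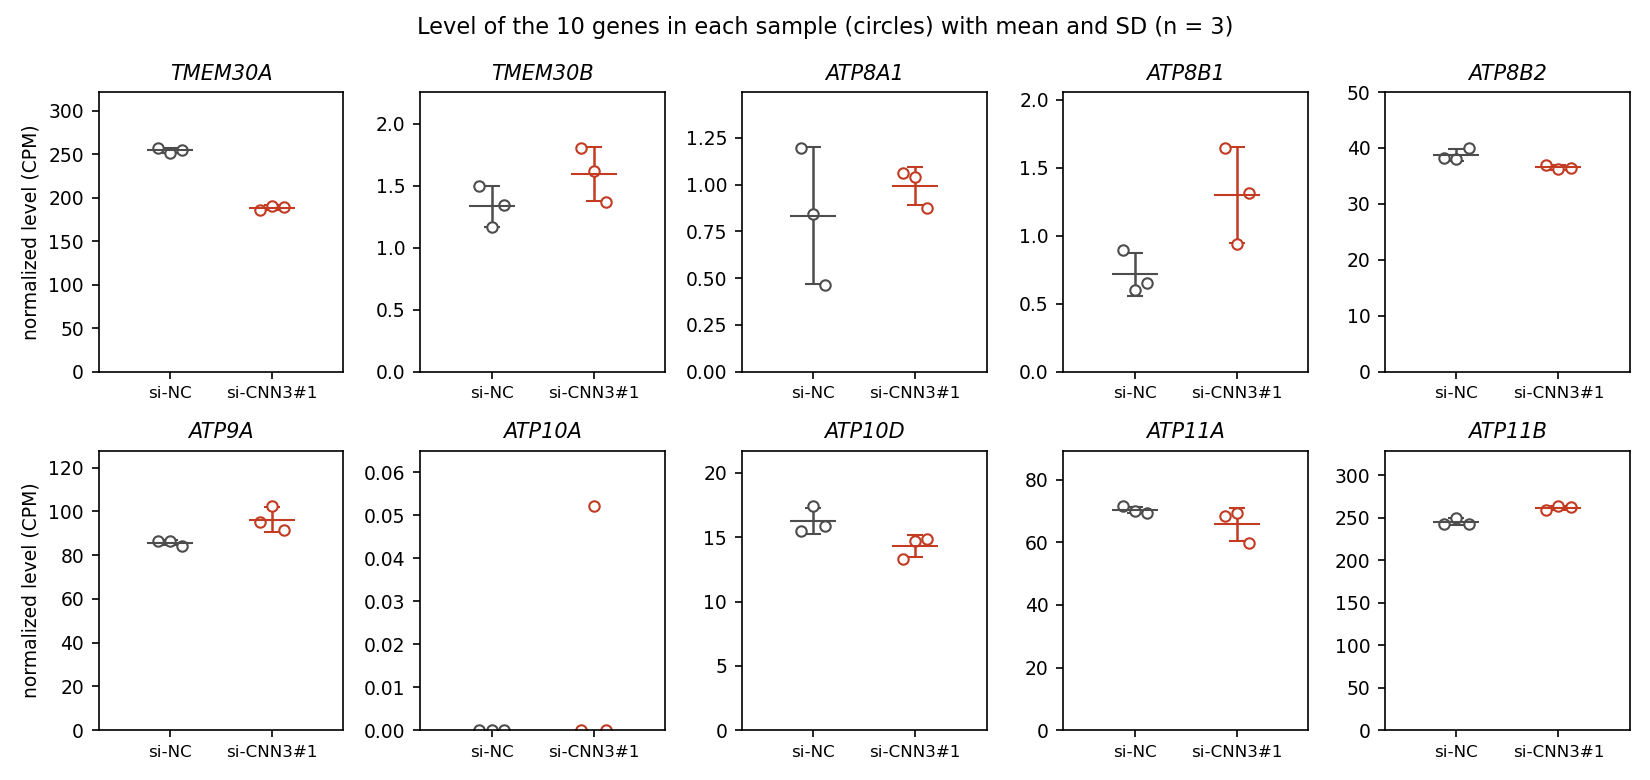
Level of each of the 10 genes in CPM (y axis, own linear scale in each panel) in the 3 si-CNN3#1 and the 3 si-NC samples; points are samples, lines are means and bars are SDs (none for ATP10A, with 1 count in all). The TMEM30A panel shows control samples at 252 to 257 CPM and knockdown samples at 186 to 191 CPM, and the ATP11B panel shows the reverse order at 242 to 250 and 259 to 263 CPM.

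TMEM30B (ENSG00000182107, chr14), the other chaperone, is known for a narrower tissue range. The si-CNN3#1 samples gave 34, 31 and 25 reads and the si-NC samples 30, 29 and 29, or 1.60 ± 0.218 and 1.33 ± 0.165 CPM. The CPM ranges of the groups overlapped. The log2 fold change was 0.27 (SE 0.24), and its interval of -0.21 to 0.75 takes in no difference as well as a rise larger in size than the TMEM30A difference.

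The 2 chaperone genes have coding sequences of similar length, 1086 bases in TMEM30A and 1056 in TMEM30B, and 59.7% of their aligned coding bases were identical. TMEM30A is built of 7 exons with a coding GC content of 41.8%, and TMEM30B of 1 exon with 68.3%. An exon of PRKCH, which lies on the opposite strand and had 177 to 201 counts, overlaps 356 bases of TMEM30B. Whether counting used the strand is not given in the sources used here, and without it reads of the shared bases cannot be told apart. By the authors' FPKM (counts scaled by gene length and library total), TMEM30A made up 99.4% ± 0.0722 of the chaperone signal with si-NC and 99.0% ± 0.151 with si-CNN3#1.

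ATP11B (ENSG00000058063, chr3), a flippase of endosomes and the trans-Golgi network, was the ATPase of the set with the most reads. Its counts were 4889, 5059 and 4797 after si-CNN3#1 and 4881, 6220 and 5230 after si-NC. The CPM values were 259, 263 and 263 with si-CNN3#1 and 243, 250 and 242 with si-NC. No sample of one group reached the other, though the raw counts, not scaled for the deeper control samples, overlapped.

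The ATP11B log2 fold change was 0.09 (SE 0.03, interval 0.04 to 0.15), or 107% of the control. The call was lost without si-NC replicate 1, without si-NC replicate 3 and with limma on unfiltered log2(FPKM + 1), and the value was 0.08 to 0.11 over all alternatives. ATP11A (ENSG00000068650, chr13), which moves phosphatidylserine and phosphatidylethanolamine at the plasma membrane, had 68.4, 69.3 and 59.8 CPM with si-CNN3#1 and 71.4, 70.0 and 69.4 CPM with si-NC. The groups were separated by the narrow step between 69.3 and 69.4 CPM, and si-CNN3#1 replicate 3 was lower than the rest. Its log2 fold change was -0.09 (SE 0.04, interval -0.18 to -0.01) and was not called under any alternative.

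ATP9A (ENSG00000054793, chr20), the flippase-like ATPase of endosomes that needs no TMEM30 partner, gave 1794, 1963 and 1668 counts in the knockdown and 1732, 2149 and 1820 in the control samples. The CPM values were 95.1, 102 and 91.4 with si-CNN3#1 and 86.3, 86.3 and 84.4 with si-NC. All knockdown samples were above all control samples and were spread more widely, with an SD of 5.51 against 1.13 CPM. The log2 fold change was 0.17 (SE 0.04, interval 0.09 to 0.24), or 112% of the control, and it was not called with limma on unfiltered log2(FPKM + 1).

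ATP8B2 (ENSG00000143515, chr1), a phosphatidylcholine flippase of the plasma membrane, had 37.0, 36.2 and 36.4 CPM with si-CNN3#1 and 38.2, 38.1 and 40.0 CPM with si-NC. The groups did not overlap, and the log2 fold change of -0.09 (SE 0.05, interval -0.19 to 0.02) was not called. ATP8B1 (ENSG00000081923, chr18), the flippase of the bile canaliculus whose loss causes familial cholestasis, was scarce. The knockdown samples held 31, 18 and 24 counts and the control samples 18, 15 and 14.

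In CPM, ATP8B1 stood at 1.64, 0.937 and 1.31 with si-CNN3#1 and at 0.897, 0.603 and 0.649 with si-NC. The highest control sample was just below the lowest knockdown sample, and the mean was 1.83-fold higher with si-CNN3#1 on the fitted scale (log2 fold change 0.87, SE 0.30, interval 0.27 to 1.46). The call was lost without si-CNN3#1 replicate 1 (0.66), without si-CNN3#1 replicate 3 (0.86), without si-NC replicate 2 (0.75), without si-NC replicate 3 (0.81) and with limma on unfiltered log2(FPKM + 1). DESeq2 did not call ATP8B1 either (0.87, SE 0.43). Genes with few reads can lack an adjusted p there, as ATP10B below did, so this is not read as a lost call. Without si-NC replicate 3, 2 genes of the set remained called in place of 4. Antisense genes with at most 12 counts overlap ATP8B1.

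ATP8A1 (ENSG00000124406, chr4), a phosphatidylserine flippase of recycling endosomes, was counted 20, 20 and 16 times in the knockdown and 24, 21 and 10 times in the control samples. The control samples spanned the knockdown samples, and the log2 fold change of 0.26 had an SE of 0.31 and an interval of -0.36 to 0.88, and ran from -0.02 to 0.58 with a sample left out. A difference in ATP8A1 was not detectable at this depth.

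ATP10D (ENSG00000145246, chr4), known to move glucosylceramide at the plasma membrane, had 13.3, 14.7 and 14.9 CPM with si-CNN3#1 and 15.5, 17.4 and 15.9 CPM with si-NC. The control samples were all higher, and the log2 fold change was -0.19 (SE 0.08, interval -0.34 to -0.04) without a call, here or under any alternative. ATP10A (ENSG00000206190, chr15), a phosphatidylcholine flippase, had 1 count in si-CNN3#1 replicate 2 and 0 in the other samples, and was not tested. A count of 0 allows up to 3 counts, or 0.121 to 0.164 CPM per library, a limit that covers counting error only.

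**Figure D2:**
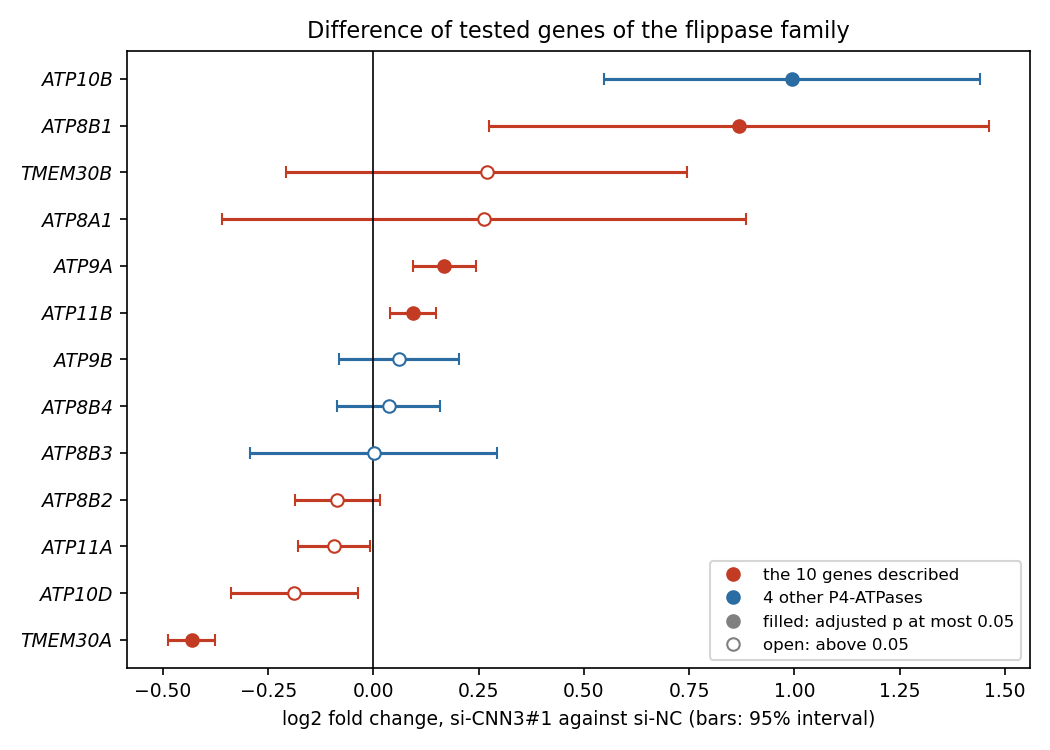
Log2 fold change of si-CNN3#1 against si-NC with its 95% interval (x axis) for the tested genes of the set and of 4 other tested P4-ATPases (y axis); filled points were called at an adjusted p of at most 0.05. TMEM30A at -0.43 stands apart on the left, ATP8B1 at 0.87 and ATP10B at 0.99 are on the right with wide intervals, and the abundant ATPases lie between -0.19 and 0.17.

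Levels between genes were compared per length in the si-NC samples. By the authors' FPKM, ATP11B was highest at 124 ± 2.49, TMEM30A followed at 87.2 ± 0.669, and ATP11A (21.2 ± 0.271), ATP8B2 (20.4 ± 0.557) and ATP9A (17.8 ± 0.250) came next. ATP10D was at 7.19 ± 0.473 FPKM and the remaining 4 genes were under 1 FPKM. ATP11A and ATP8B2 overlapped between samples, as did ATP8B1 and ATP8A1 near the bottom, while the other neighbours down to TMEM30B did not.

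The order depended on the gene length used. The length behind the authors' FPKM was 1960 bases for ATP11B, whose coding transcript in GENCODE 29 has 7325, and 2901 bases for TMEM30A, whose transcript has 4594. Per length of the coding transcript, on the scale of FPKM (a choice made after seeing the data), TMEM30A was highest at 55.0 ± 0.422 with si-NC and 41.3 ± 0.772 with si-CNN3#1, followed by ATP11B at 33.2 ± 0.666 with si-NC. ATP9A moved from the fifth to the third place at 10.5, above ATP11A at 7.95 and ATP8B2 at 6.57. With the summed exons of each gene as length TMEM30A was again first.

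ATP11B made up 53.7% of the summed FPKM of all 14 P4-ATPases with si-NC and 55.3% with si-CNN3#1, and 42.6% and 43.9% per coding transcript length. On either length its RNA was the most abundant of the 14 P4-ATPases.

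**Figure D3:**
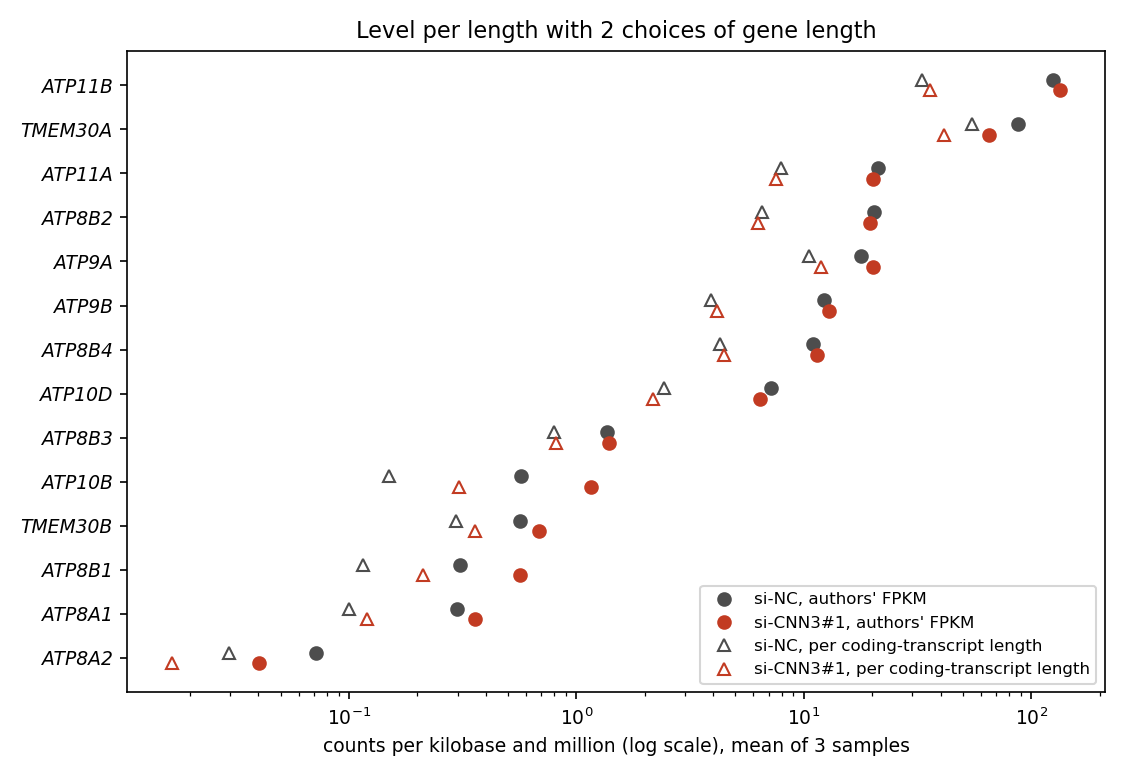
Level per length (x axis, log scale, mean of 3 samples) of the genes of the set other than ATP10A and of 5 other P4-ATPases (y axis), with si-NC in grey and si-CNN3#1 in red, by the authors' FPKM (circles) and by the length of the coding transcript in GENCODE 29 (triangles). ATP11B leads in FPKM and TMEM30A leads per coding transcript.

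The chaperone was then set against the 7 ATPases of the set that bind TMEM30 proteins (all but ATP9A). In FPKM, TMEM30A divided by their sum was 0.357, 0.361 and 0.366 in the si-CNN3#1 samples and 0.510, 0.489 and 0.507 in the si-NC samples. The group means were 0.361 ± 0.00456 with si-CNN3#1 and 0.502 ± 0.0114 with si-NC. The ATPase sum itself was 181 ± 2.30 FPKM with si-CNN3#1 and 174 ± 2.68 with si-NC, so the ratio moved mainly with TMEM30A. Most of this sum was ATP11B, at 134 FPKM with si-CNN3#1 and 124 FPKM with si-NC.

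Per length of the coding transcript the same ratio was 0.791 ± 0.0120 with si-CNN3#1 and 1.09 ± 0.0237 with si-NC. With all 12 partner ATPases of the genome it was 0.312 against 0.434 in FPKM and 0.627 against 0.865 per coding transcript. Whether it lies above or below 1 depended on the length. Its lower value with si-CNN3#1 follows from the choice of TMEM30A by its fall, and is not a separate result. These are ratios of RNA and not of protein complexes.

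The P4-ATPase genes outside the set were tested in the same fit. Like the lists that follow, they were drawn up with earlier results of these data known, so their p-values are not independent support. ATP10B, a lysosomal glucosylceramide and phosphatidylcholine flippase, rose, with 44, 48 and 38 counts in the knockdown and 19, 34 and 24 in the control samples. The level was 2.30 ± 0.211 CPM against 1.14 ± 0.211 CPM, without overlap (log2 fold change 0.99, SE 0.22, edgeR's adjusted p = 9.58e-04), and the adjusted p stayed at or below 0.00961 with any sample left out. In DESeq2 its adjusted p was not given, and it was below the filter in both limma fits on filtered FPKM. With limma on unfiltered log2(FPKM + 1) it was not called (0.46, adjusted p = 0.0772).

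ATP8B3 had a log2 fold change of 0.00 (SE 0.15, adjusted p = 0.998), ATP8B4 was at 0.04 (SE 0.06, adjusted p = 0.781) and ATP9B at 0.06 (SE 0.07, adjusted p = 0.664) in the same edgeR fit. ATP8A2, with 1 to 7 counts, and the pseudogene TMEM30CP, with 0 to 2, were not tested, and 1 of the 5 tested was called.

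Genes of neighbouring functions were counted in the same way, against the 13.3% of all genes. Of the P-type ATPases of other classes, which pump ions, polyamines or peptides, 15 of 22 were tested, 3 rose and 2 fell, with a median log2 fold change of 0.04. The plasma membrane calcium pump ATP2B1 rose by 0.15 (edgeR's adjusted p = 0.00102, 0.146 with limma on unfiltered log2(FPKM + 1)) and ATP13A3, a polyamine transporter, by 0.13 (edgeR's adjusted p = 5.78e-04). The endoplasmic reticulum calcium pumps ATP2A2 (0.10, edgeR's adjusted p = 0.00746) and ATP2A3 (-0.84, edgeR's adjusted p = 0.0154) went opposite ways, and ATP2A3 was under 3 CPM. Their calls were not stable, that of ATP2A2 being lost without si-CNN3#1 replicate 1, si-CNN3#1 replicate 2 or si-NC replicate 3 (0.08 to 0.13 over the 6) and that of ATP2A3 without si-CNN3#1 replicate 1, si-NC replicate 1 or si-NC replicate 2 (-0.98 to -0.68).

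Scramblases let phospholipids cross in both directions without ATP. Of 21 genes of scramblases and their partners, 15 were tested, 1 rose and 1 fell, with a median of 0.01. PLSCR4 rose by 0.15 (SE 0.05, edgeR's adjusted p = 0.0355) and BSG, a chaperone of scramblases, fell by 0.09 (SE 0.02, edgeR's adjusted p = 0.0104). Both calls were lost without si-CNN3#1 replicate 2 and without si-NC replicate 3, which left 0 of the list called by edgeR (6 at an unadjusted p under 0.05 in each case), and that of PLSCR4 also without si-NC replicate 1, where 1 was called. With each of the 6 samples left out in turn PLSCR4 ran from 0.12 to 0.17 and BSG from -0.11 to -0.07.

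Of 9 ABC transporters that export lipids, 8 were tested, 1 rose and 3 fell, with a median of -0.06. ABCG1, a cholesterol and phospholipid exporter, fell by 0.45 (SE 0.05, edgeR's adjusted p = 1.80e-09), from 38.7 to 40.6 CPM in the control samples to 28.0 to 29.6 CPM. ABCA2 fell by 0.18 (edgeR's adjusted p = 0.00116), a call that was lost in the 3 limma fits (adjusted p = 0.0660 to 0.189), and ABCA3, the lipid transporter of lamellar bodies, fell by 0.17 (edgeR's adjusted p = 0.0165). The ABCA3 call was lost without si-CNN3#1 replicate 1, si-CNN3#1 replicate 3 or si-NC replicate 1 (-0.22 to -0.14), and 2 of the list remained called without si-CNN3#1 replicate 1.

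The multidrug pump ABCB1 rose by 1.15 (SE 0.34, edgeR's adjusted p = 0.0163). It had 8 to 20 counts per sample, is named here after its values were seen, and lost its call without si-CNN3#1 replicate 1, si-CNN3#1 replicate 2, si-NC replicate 2 or si-NC replicate 3 (1.05 to 1.24).

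Of 18 enzymes of phospholipid synthesis 17 were tested and 1 was called, with a median of 0.00. PCYT1A, the regulated enzyme of phosphatidylcholine synthesis, fell by 0.14 (SE 0.05, edgeR's adjusted p = 0.0469). The call was lost without si-CNN3#1 replicate 1, si-CNN3#1 replicate 2, si-NC replicate 1 or si-NC replicate 3 (-0.19 to -0.10). The phosphatidylserine synthase PTDSS2 was at -0.06 (edgeR's adjusted p = 0.421) and the phosphatidylinositol synthase CDIPT at -0.05 (edgeR's adjusted p = 0.489).

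Of 18 factors of endosomal and Golgi traffic linked to flippases, all were tested, 3 rose and 2 fell, with a median of 0.03. RAB5A, the small GTPase of early endosomes, rose by 0.27 (SE 0.04, edgeR's adjusted p = 2.36e-06), and CDC42, a small GTPase that organizes actin, fell by 0.30 (SE 0.03, edgeR's adjusted p = 5.89e-13). The paper already lists CDC42 among its differentially expressed genes, from these same samples. RAB11FIP1, an effector of recycling endosomes, fell by 0.41 (SE 0.06, edgeR's adjusted p = 1.17e-06), and these 3 calls held with any sample left out. That of RAB11FIP1 was lost with limma on unfiltered log2(FPKM + 1) (adjusted p = 0.103). The rises of RAB11A, the GTPase of recycling endosomes (0.10, edgeR's adjusted p = 0.0274), and of EHD1, which shapes recycling tubules (0.10, edgeR's adjusted p = 0.0448), were not stable. RAB11A lost its call without si-CNN3#1 replicate 3, si-NC replicate 1 or si-NC replicate 2 (0.06 to 0.13), EHD1 without si-CNN3#1 replicate 1 or any si-NC replicate (0.07 to 0.11), and 3 of the list remained called without si-NC replicate 1 or si-NC replicate 2.

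Of 13 genes for caspases and for proteins that recognize exposed phosphatidylserine, 9 were tested and 1 was called, with a median of -0.01. AXL, a receptor that binds phosphatidylserine through the bridging protein GAS6, rose by 0.51 (SE 0.12, edgeR's adjusted p = 0.00124), from 4.54 to 5.08 CPM to 6.63 to 7.37 CPM, and the call held with any sample left out but not with limma on unfiltered log2(FPKM + 1) (adjusted p = 0.137). ANXA5, which binds phosphatidylserine, was at 0.00 (edgeR's adjusted p = 0.994) and the bridging protein MFGE8 at -0.06 (edgeR's adjusted p = 0.379).

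**Figure D4:**
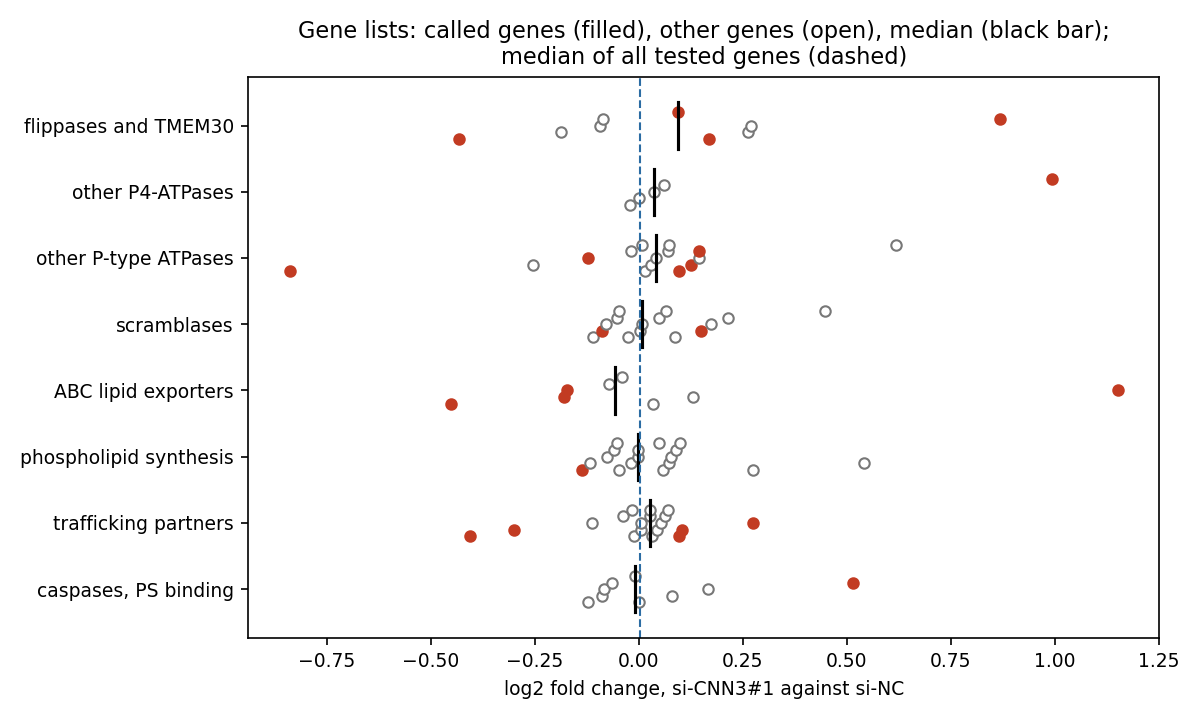
Log2 fold change of si-CNN3#1 against si-NC (x axis) for every tested gene of the set and of 7 lists of related genes (y axis); each point is 1 gene, filled where it was called, the black bar is the list's median and the dashed line is the median of all tested genes. The medians lie between -0.06 and 0.09, and called genes are found on both sides of 0 in most lists.

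The genes with the profile most like TMEM30A were sought among 9789 genes of at least 10 CPM, by the Euclidean distance between centred log2 CPM values over the 6 samples. The closest were MPZL2 (distance 0.0563), IGFBP4 (0.0596), TGM2 (0.0655), CTSB (0.0672) and RSBN1 (0.0810). These 5 are a description, since genes that differ between the groups by the same amount come out close.

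**Figure D5:**
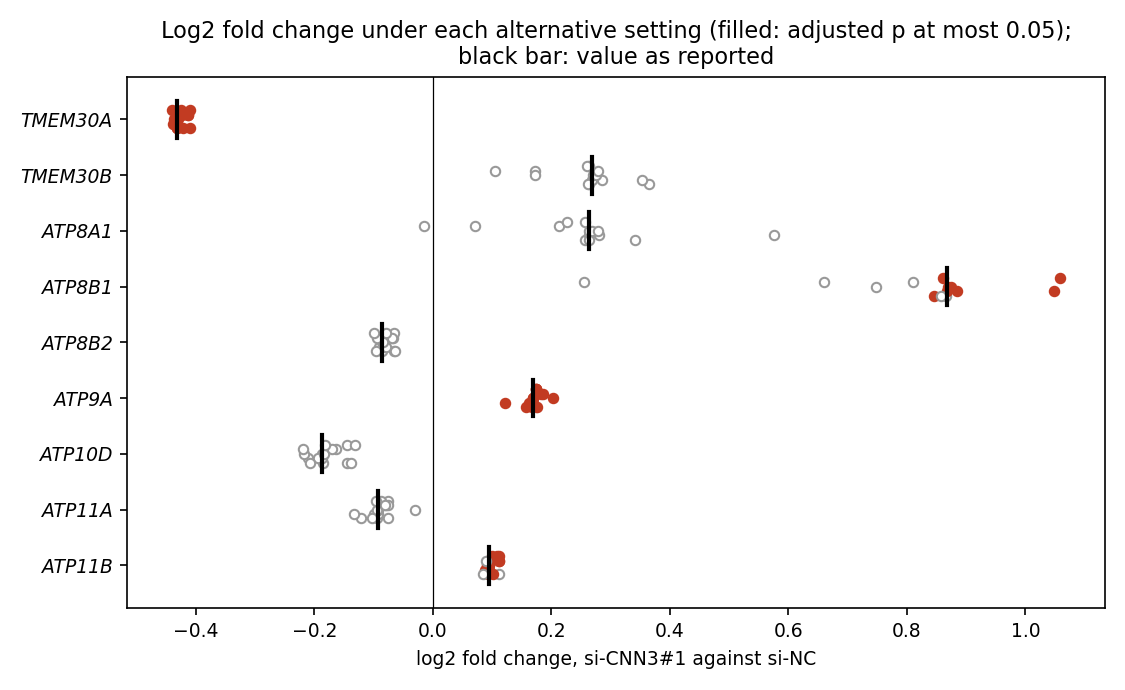
Log2 fold change of si-CNN3#1 against si-NC (x axis) of the 9 tested genes (y axis); each point is 1 of up to 16 alternatives, filled where the gene was called, and the black bar is the value given in the text. TMEM30A stays between -0.44 and -0.41 throughout, while ATP8B1 runs from 0.26 to 1.06.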

How the data were processed

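Per the submitters' processing notes and the Methods, reads were filtered by the authors and aligned with TopHat2 (2.0.9) and Bowtie2 (2.0.6). HTSeq and DESeq (1.10.1) are also named there. The deposited counts are whole reads per Ensembl gene and sample, not normalized, and the deposited FPKM values equal these counts divided by 1 length per gene and the column total. The genome build, annotation and strand setting are not given in the sources used here.

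Genes were named from GENCODE 29 on GRCh38 (45342 identifiers; 2820 without a name were kept by identifier). Counts were tested with edgeR 4.0.16 in R 4.3.3 (TMM, filterByExpr, glmQLFit and glmQLFTest, with no term but condition). P-values were adjusted over 15860 genes by Benjamini-Hochberg, with a threshold of 0.05. Same-group samples differed beyond counting noise (chi-square over its degrees of freedom 1.52 to 1.90), so none were merged. The samples were taken as replicates because the paper describes independent assays.

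The members and gene lists were chosen with earlier results of these data known. Named genes are the members, the other P4-ATPases, CNN3, in each list the 3 called genes with the largest rise and the 3 with the largest fall at a mean of at least 1 CPM (the 2 highest by FPKM where fewer than 2 were called), and the 5 genes nearest to TMEM30A in profile. Alternatives were RLE, upper quartile and total-count scaling, DESeq2 1.42.0, no filter, a minimum of 10 counts in all samples, a block for the replicate number, each sample left out, and limma 3.58.1. Its pseudocount was 1 or 0.1 on log2 FPKM, for genes whose mean FPKM reached 1, and 1 with no filter. On that scale the change of low genes is understated. The edgeR, DESeq2 and limma fits were tested on simulated counts with known changes, drawn from the samples' own means and totals. The simulation gave every gene the same spread beyond counting noise and changed only genes with many reads. It therefore does not bear on calls of scarce genes, and its outcome is not used here. Coding transcripts, siRNA sites and the motif were read from GENCODE 29; proteins and promoters were not used here. Some items are not reported here.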

Additional observations from a re-analysis of the deposited data

How the results depend on the processing

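Among the genes named by the rule above, no called value changed sign. Over all genes, 2111 calls became 1073 with DESeq2, 1353 and 1363 with limma on log2(FPKM + 0.1) and log2(FPKM + 1), 585 with limma without a filter, and 1551 to 1747 with a sample left out. Scaling by total counts put 60.0% of calls on the higher side against 46.3%, limma 54.0% to 58.6%, DESeq2 40.4% and edgeR without a filter 41.4%. TMEM30A was at -0.41 in both limma fits on log2(FPKM + 1), and CNN3 ran from -1.06 to -0.92 with a sample left out. Of the 10 genes 1 was called with limma without a filter and 2 to 4 with a sample left out.

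The lists moved with the method. DESeq2 called 0 other P4-ATPases (1 at an unadjusted p under 0.05), 1 scramblase, 2 ABC exporters, 0 synthesis enzymes (1 unadjusted) and 3 traffic genes. Both filtered limma fits called 0 other P4-ATPases (0 unadjusted), 1 scramblase, 1 ABC exporter and 0 synthesis enzymes (4 unadjusted). Unfiltered limma called 0 other P4-ATPases (1 unadjusted), 2 other P-type ATPases, 0 scramblases (5 unadjusted), 1 ABC exporter, 0 synthesis enzymes (3 unadjusted), 2 traffic genes and 0 recognition genes (1 unadjusted). Without a filter on low counts edgeR called 1 scramblase, and with upper quartile scaling 0 synthesis enzymes (4 unadjusted). With a sample left out the calls were 4 to 5 for other P-type ATPases, 0 to 3 for scramblases, 2 to 3 for ABC exporters, 0 to 1 for synthesis and 3 to 5 for traffic. The causes were not tested.

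Same-numbered samples of the groups share only a number in the labels. Their deviations from the group means correlated at 0.08, 0.13 and 0.10, and every sample correlated best with its own number. With the replicate block 2727 genes were called, 4 scramblases and 2 synthesis enzymes among them. ATP8A1, ATP8B1, ATP10A and TMEM30B had at most 34 counts in a sample, and the intervals of the 3 that were tested were the widest of the 9 tested genes.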
